A study of Homo sapiens with 6 samples.

Results

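Positions U1201 to U1599 of human 18S ribosomal RNA (rRNA) make up most of the 3′ major domain, the part of the small subunit's RNA that folds into its head. All rows of the deposited 18S tables in that range were taken, 399 of the 1869 positions of 18S and of 6939 in 18S and 28S together. All 399 had at least 100 crossing reads in every library. The RNA was total RNA without its short species from HEK293T/17, a clone of a human embryonic kidney line that carries the SV40 large T antigen. It was cut into fragments, and the fragments were either treated with CMC, a water-soluble carbodiimide whose adduct forms on U and G and lasts longest on pseudouridine, or mock-treated. Each kind was then copied in 1 of 3 ways: by HIV reverse transcriptase (HIV RT) with magnesium, or by SuperScript III with either manganese or magnesium. SuperScript III is an engineered form of the murine leukaemia virus enzyme, and its conditions are called manganese and magnesium here. This gave 6 libraries, 1 for each of the 3 conditions and 2 treatments, all from 1 cell line. No difference reported here therefore has a replicate check.

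The head of the small subunit holds the beak and forms part of the sites where tRNAs sit during translation. Its rRNA is modified while the ribosome is assembled. Pseudouridine (Ψ), an isomer of uridine, is placed by dyskerin, the enzyme of the H/ACA ribonucleoproteins, which are led to each U by a guide RNA. Position U1248, next to the tRNA in the P site, starts as a Ψ that then receives a methyl group from EMG1 and an aminocarboxypropyl group from TSR3. This hypermodified base is known to disturb reverse transcription without any chemical. Position C1337 is an N4-acetylcytidine (ac4C), made by NAT10. Ribose methyl groups are added by fibrillarin, led by C/D guide RNAs.

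The domain held 82 A, 112 C, 118 G and 87 U. The list of its known modified bases, from general knowledge, had 17 positions: 6 Ψ, the hypermodified U1248, the ac4C at C1337 and 9 ribose-methylated positions. The deposited sequence had a U at all 7 listed uridines and a fitting base at all 9 ribose-methylated positions. The remaining 382 positions are called unlisted here, 77 of them U. Sequences are from the deposited tables, with positions counted from 1 at the 5′ end of the deposited 18S sequence. The 8 positions most of the results turn on are shown first, because their neighbouring bases differ. Each run has 10 bases on either side of the modified base, which is in capitals.
Ψ1232: gaguggagccUgcggcuuaau
Ψ1238: agccugcggcUuaauuugacu
Ψ1244: cggcuuaauuUgacucaacac
hypermodified U1248: uuaauuugacUcaacacggga
acetylated C1337: ggugcauggcCguucuuaguu
Ψ1347: cguucuuaguUgguggagcga
Ψ1367: auuugucuggUuaauuccgau
Ψ1445: cccaacuucuUagagggacaa
The base just 3′ of the modified one, which the enzyme copies just before it, was G at Ψ1232, Ψ1244, C1337 and Ψ1347, U at Ψ1238 and Ψ1367, A at Ψ1445 and C at U1248. Positions Ψ1238, Ψ1244 and U1248 lie within 1 short stretch and overlap in these runs.

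For each position the tables hold the reads that crossed it, with their bases, and the reads that stopped at it. Mutation shares are mismatched reads as a percent of the reads crossing a position. The stop share is the stops at a position as a percent of those stops plus the crossing reads. Reads that copied the position and stopped at the next 5′ base are in neither count, so the share runs above that of all reads reaching the position wherever the next base also stops. In the CMC libraries of the domain the gap had a median of 0.0685 points or less and was widest at U1248 with HIV RT (10.5 points) and magnesium (22.6 points) and at U1368 with manganese (18.6 points). A read that ran to the 5′ end of its RNA fragment cannot be told apart from such a stop. Differences are CMC minus mock, in percentage points (points). A position was called when a two-sided Fisher's exact test on the reads, adjusted by Benjamini-Hochberg over all positions tested in 18S and 28S, gave a value under 0.05 and the difference was at least 5 points. Only called positions are said to rise or fall. Such a call compares 2 libraries, not 2 treatments. Median crossing reads in the domain ranged from 118039 (HIV RT, CMC) to 373661 (HIV RT, mock), and the lowest value was 9440 (SuperScript III with magnesium, CMC, at U1239). The domain took between 8.64% and 9.70% of each library's ended reads. No share in the domain had a 95% Wilson interval wider than ±0.558 points for mutation or ±0.745 points for stop. All intervals cover counting error only, and the labels describe amplification but no molecular identifiers, so reads are not independent molecules.

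At U1248 the modified base was read as another base in most crossing reads without CMC, and that share fell with CMC in all 3 conditions. Mutation went from 81.1% in the mock library to 54.5% in the CMC library with HIV RT. It went from 59.7% to 50.4% with manganese, and from 67.0% to 59.6% with magnesium. The changes were -26.7 points (95% Newcombe interval -27.2 to -26.2), -9.26 points (-9.63 to -8.90) and -7.41 points (-8.02 to -6.80). In each mock library 1 position of the domain had a mutation share of 5% or more, U1248, so no other position of the domain could fall by the threshold. Over all positions tested, 0.101% (HIV RT), 0.332% (manganese) and 0.0868% (magnesium) fell in mutation. The HIV RT fall was larger than that with manganese by 17.4 points (interval of the difference of changes 16.8 to 18.0, from counting error). In the mock libraries U1248 had the highest mutation share of every U in both rRNAs and rank 4 of all positions, in each condition. The wrong base was mostly C, which made up 89.3%, 82.9% and 94.7% of mismatched reads in the mock libraries of HIV RT, manganese and magnesium, and 83.7%, 77.2% and 90.8% in the CMC libraries.

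Stops at U1248 differed by condition. With HIV RT the stop share rose from 10.5% to 51.1%, which is 40.6 points (40.3 to 41.0). With magnesium it rose from 26.8% to 68.1%, or by 41.4 points (41.0 to 41.7). With manganese the same enzyme had 1.85% without CMC and 3.68% with it, a difference of 1.84 points (1.71 to 1.96) that was under the threshold. The changes with manganese and with magnesium differed by 39.5 points (39.1 to 39.9). The base just 5′ of it, C1247, also gained stops. Its stop share rose from 6.06% to 36.3% with HIV RT, from 8.52% to 26.8% with manganese and from 28.4% to 63.9% with magnesium. A stop booked at C1247 is a read that had copied U1248 and went no further. The last copied base of a read is not among the crossing counts, so what these reads had at U1248 is not known.

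The reads that reached U1248 can therefore be put into 4 classes: stopped before it, copied it and stopped at once, passed it with another base, or passed it reading U. With HIV RT, 68.7% passed with another base in the mock library and 21.1% in the CMC library, while 16.0% and 17.7% passed reading U. The stopped classes grew, from 9.92% to 40.6% before U1248 and from 5.41% to 20.6% just after it. With manganese, reads stopped before U1248 were 1.69% and 2.83%, and those stopped just after it were 8.24% and 23.1%. Those that passed with another base went from 53.8% to 37.4%, and reads of U from 36.3% to 36.7%. So with HIV RT and with manganese the share that passed reading U moved by less than 2 points, and the share that passed with another base was lower with CMC. With magnesium both passing classes were smaller, 38.4% against 12.7% for another base and 18.9% against 8.61% for U. Stopped reads made up the rest, 20.9% and 45.6% before U1248 and 21.8% and 33.1% just after it.

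**Figure D1:**
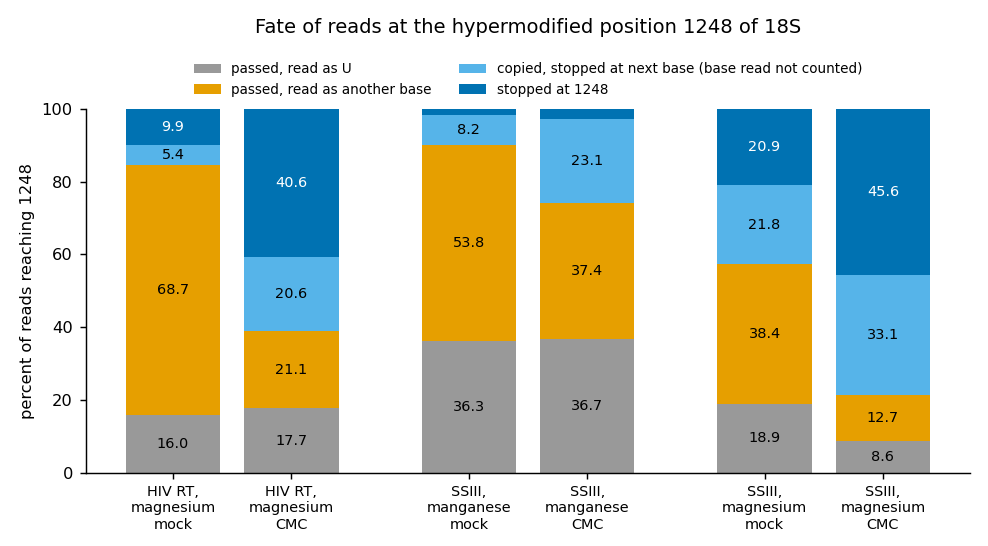
Share of the reads reaching position U1248 (percent) in each of the 6 libraries, stacked by what they did there: stopped before it, copied it and stopped, passed with another base, or passed reading U. The class that passed with another base was smaller with CMC in every pair, 68.7% against 21.1% with HIV RT, and reads stopped before U1248 stayed at 2.83% or less with manganese.

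At the acetylated C1337 no change with CMC was larger in size than the -0.567 points of its HIV RT stops. Without CMC its mutation share lay above that of most C of the domain. Its mutation share was 1.11% in the HIV RT mock library, 1.69% with manganese and 0.592% with magnesium. The medians over the C of the domain were 0.785%, 0.341% and 0.0881%, and C1337 ranked 23, 12 and 4 among the 112 C. The base read in its place was mostly U, in 77.1%, 90.4% and 90.1% of mismatched mock reads. With CMC the mutation shares were 0.815%, 1.21% and 0.569%. The differences were -0.299 points (-0.398 to -0.189) with HIV RT and -0.480 points (-0.617 to -0.329) with manganese. The magnesium difference of -0.0238 points had an interval from -0.120 to 0.0875. Stop shares at C1337 were 2.46%, 1.04% and 0.962% without CMC and 1.89%, 0.704% and 0.407% with it, so no change there reached the threshold.

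Stops rose at 4 of the 6 Ψ with HIV RT, at 4 with manganese and at 5 with magnesium, where 10.1%, 8.38% and 9.22% of all positions tested rose. Of the other 36 Ψ of 18S, 33, 24 and 34 rose. The largest rises among the 6 were at Ψ1445 and Ψ1367. The stop share of Ψ1445 rose from 4.71% to 60.9% with HIV RT, from 3.71% to 56.8% with manganese and from 5.11% to 65.4% with magnesium. That of Ψ1367 rose from 2.73% to 39.0%, from 9.27% to 73.1% and from 10.3% to 76.2% in the same order. In all 3 conditions these CMC libraries lay far above their mock libraries, but the order of the conditions differed between the sites. At Ψ1367 the change with magnesium exceeded that with HIV RT by 29.6 points (29.2 to 30.1). At Ψ1445 the change with HIV RT exceeded that with manganese by 3.14 points (2.82 to 3.46). The runs above show that Ψ1445 lies just 5′ of an A and Ψ1367 just 5′ of a second U.

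Ψ1238 and Ψ1244, both 5′ of U1248, rose in every condition as well. At Ψ1238 stops went from 2.14% to 23.8% with HIV RT, from 10.1% to 48.2% with manganese and from 6.62% to 28.6% with magnesium. At Ψ1244 they went from 0.773% to 26.6%, from 0.959% to 25.9% and from 1.503% to 27.9%. The 3 changes at Ψ1244 lay between 25.0 and 26.4 points, the narrowest spread among the 4 Ψ called for stops in every condition. At Ψ1238 HIV RT and magnesium did not differ beyond counting error, with a difference of changes of -0.351 points (-1.202 to 0.5001), while manganese exceeded HIV RT by 16.4 points (15.7 to 17.2).

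The other 2 Ψ stopped few reads. Ψ1347 had stop shares of 1.46% and 5.63% with HIV RT, 2.67% and 4.63% with manganese, and 1.99% and 8.45% with magnesium, mock first. Only the magnesium change of 6.46 points was called. Ψ1232 had 1.40% and 3.40%, 1.13% and 2.18%, and 2.29% and 2.91%, and was not called. Its changes of 2.01, 1.05 and 0.615 points were below the median change of all U of both rRNAs, which was 3.23, 1.40 and 3.99 points. Both of these sites lie just 5′ of a G, as Ψ1244 does.

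The order of the 6 Ψ by mutation change differed from that by stop change. Ψ1244 and Ψ1367 were called for both measures with HIV RT, and Ψ1244 with manganese. Ψ1347, where few reads stopped, had the largest mutation rise in the domain, from 0.835% to 29.1% with HIV RT and from 0.0925% to 15.1% with manganese. With magnesium its mutation share was 0.109% without CMC and 0.555% with it. Ψ1367 rose from 0.310% to 10.6% with HIV RT only, its values with manganese being 0.0512% and 4.84%. Ψ1244 rose from 0.155% to 5.54% with HIV RT and from 0.0937% to 10.3% with manganese. So 3, 2 and 0 of the 6 Ψ were called for mutation in the order HIV RT, manganese, magnesium, where 1.05%, 1.29% and 0.159% of all positions tested rose. Ψ1244 was the only 1 of the 6 whose mutation change was larger with manganese than with HIV RT, by 4.80 points (4.42 to 5.17).

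Ψ1445, which stopped the most reads with HIV RT, mutated in few of those that crossed it. Its mutation share was 0.929% and 4.81% with HIV RT, 0.219% and 2.65% with manganese, and 0.0360% and 0.460% with magnesium. Ψ1232 had 0.143% and 3.15% with HIV RT, 0.112% and 1.06% with manganese, and 0.0362% and 0.288% with magnesium. Ψ1238 was lowest with HIV RT, at 0.133% and 0.947%, and manganese and magnesium gave 0.0321% and 0.788%, and 0.0385% and 0.371%. Its changes with HIV RT and manganese, 0.814 and 0.756 points, did not differ beyond counting error (difference 0.0579, interval -0.122 to 0.238). Both were below the median change of all U, 0.955 and 0.770 points.

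**Figure D2:**
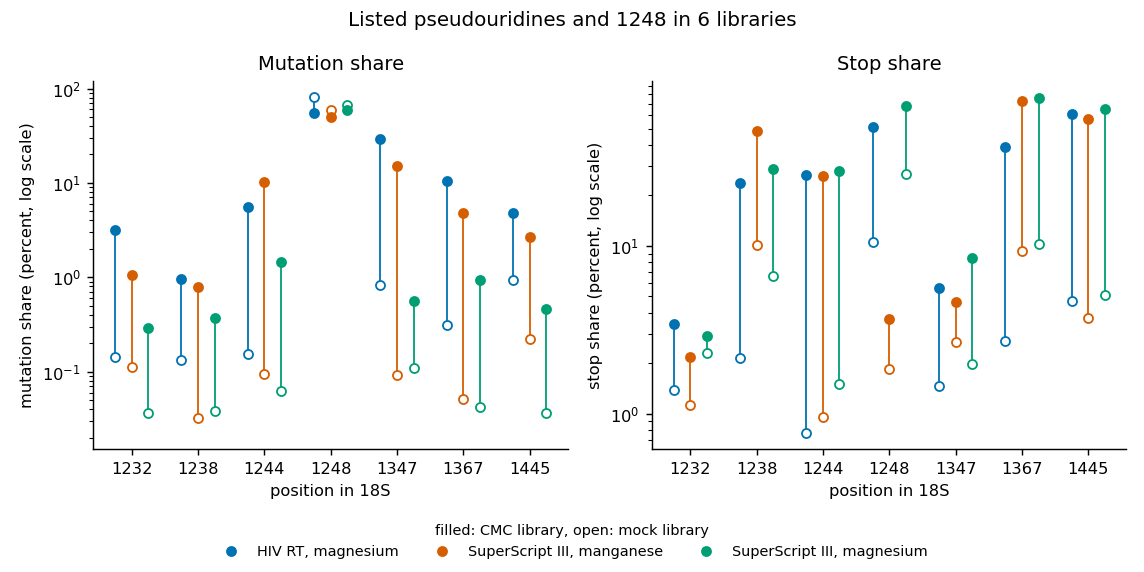
Mutation share (left) and stop share (right), in percent on log axes, at the 6 Ψ and at U1248, with filled points for CMC libraries and open points for mock libraries of each condition. Ψ1347 has the highest CMC mutation share among the Ψ (29.1% with HIV RT) and low stop shares (up to 8.45%), while U1248 is the only site where the open mutation points lie above the filled ones.

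The mutation share of all 6 Ψ was higher with CMC than without in every condition, and so was the stop share. Median changes over the 6 were 4.63, 3.61 and 0.435 points for mutation in the order HIV RT, manganese, magnesium. For stops they were 23.7, 31.5 and 24.2 points. Over all positions tested the medians were 0.0542, 0.195 and 0.0529 points (mutation) and 0.154, 0.0238 and 0.00510 points (stops). The other 36 Ψ of 18S had median mutation changes of 4.79, 4.24 and 0.508 points and median stop changes of 15.0, 8.69 and 22.4 points. The 6 sites were chosen with earlier results known, and the medians were not tested against each other. A mean in place of the median gives 8.60 points for mutation with HIV RT, since Ψ1347 alone changed by 28.3 points.

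Where a Ψ was misread with CMC, the base read was mainly C. Over the 6 sites together, C made up 81.0% (HIV RT), 79.9% (manganese) and 74.3% (magnesium) of mismatched reads. In the mock libraries, where the mutation shares at these sites were lower, C made up 40.3%, 33.7% and 44.3%. The median C share over the 6 sites was 77.5%, 66.5% and 69.2% with CMC. Without CMC it was 40.6%, 43.9% and 53.5%, and C led at 3, 3 and 4 of the 6 sites. Single sites differed. At Ψ1244 C was 96.1%, 91.8% and 89.0% of mismatches with CMC, and at Ψ1347 92.98%, 75.0% and 66.2%. At Ψ1445 it was 48.6% with HIV RT, where A made up 39.6%, and 57.9% with manganese, where G made up 29.4%. At Ψ1238 with magnesium A led with 55.6% of only 45 mismatched reads, the 1 case among 18 with CMC where C did not lead. C made up 13.3% there with CMC and 51.4% without. With manganese the C share at Ψ1238 was also lower with CMC, 50.3% against 59.6%, while with HIV RT it was 49.5% against 41.1%.

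Over the whole domain, mutation rises were few and all at U. With HIV RT 5 of 399 positions rose, or 1.25% beside the 1.05% of all positions. With manganese 4 rose, beside 1.29%, and with magnesium 0 rose, beside 0.159%. Of the called positions outside the list, U1239, just 3′ of Ψ1238, rose from 0.359% to 7.15% with HIV RT. U1371 rose from 1.72% to 10.7% with HIV RT, U1242 from 0.119% to 7.79% with manganese, and U1307 from 0.705% to 7.43% with manganese. None of these unlisted U was called for mutation in a second condition, though U1307 had 0.139% and 4.33% with magnesium. The contexts of U1371 and U1307, the 2 that lie more than 3 bases from a listed U, are shown with the U in capitals.
U1371: ugguuaaUuccgaua
U1307: uagcucuUucucgau
Both have another pyrimidine just 3′ of them.

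Stops rose at many more positions. With HIV RT 41 of the 399 rose, with manganese 40 and with magnesium 42. The domain's shares of 10.3%, 10.03% and 10.5% were near the 10.1%, 8.38% and 9.22% over all positions tested. U made up 30, 24 and 33 of the called positions. In all, 58 positions rose in at least 1 condition and 27 in all 3, which is 65.9%, 67.5% and 64.3% of the 3 lists. That overlap was taken within the domain only, so it cannot be called particular to the domain. Of these 27, 21 were U, 3 were G, 2 were A and 1 was C. The largest mean rises over the 3 conditions were at Ψ1445 (56.5 points), Ψ1367 (55.4), C1247 (28.1), Ψ1238 (27.3), U1368 (27.0) and Ψ1244 (25.7). The place of U1368 depends on the measure, since over all reads reaching it the CMC share with manganese was 18.6 points lower.

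Some bases beside the Ψ rose in stops as well. U1368, just 3′ of Ψ1367, rose by 27.1, 27.3 and 26.5 points in the order HIV RT, manganese, magnesium. These shares leave out the many CMC reads that copied U1368 and stopped at Ψ1367. Over all reads reaching U1368, its CMC stop share with manganese was 18.6 points lower, so the size of its rise depends on the measure. G1366, just 5′ of Ψ1367, rose by 23.6, 31.8 and 14.1 points. U1444, just 5′ of Ψ1445, rose by 15.8, 21.4 and 18.2 points, and U1239, just 3′ of Ψ1238, by 13.1, 22.8 and 16.7 points. C1237, just 5′ of Ψ1238, rose by 14.6 points with manganese only, and its changes were 3.95 points with HIV RT and -2.42 points with magnesium. A1446, just 3′ of Ψ1445, was not called in any condition, with changes of 3.64, 0.864 and 2.52 points. The bases on either side of Ψ1232 and of Ψ1347 were not called for stops in any condition either. Of the called rises that were not at a U, 8 of 11 with HIV RT, 9 of 16 with manganese and 6 of 9 with magnesium were next to a called U, as were 11.5%, 9.94% and 14.4% of all 312 positions of the domain that are not U.

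The called positions formed short runs along the RNA, and 4 windows were outlined after the values were seen. Capitals mark U1248 and the listed Ψ whose stops rose in every condition, or, in the third window, 3 unlisted U that did so. Ψ1232, the first base of the first window, was not called and is in lower case.
Ψ1232 to C1252: ugcggcUuaauuUgacUcaac
G1352 to U1372: gagcgauuugucuggUuaauu
A1396 to C1412: augcUaacUaguUacgc
C1436 to G1456: ccaacuucuUagagggacaag
The third of these holds no listed base. Its capitals are U1400, U1404 and U1408, each followed by an A, and they rose by 9.56, 6.10 and 11.6 points with HIV RT, by 13.9, 10.3 and 16.9 points with manganese and by 13.7, 12.3 and 17.4 points with magnesium.

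The longest unbroken run of called rises was 7 positions with HIV RT, found both at U1242 to U1248 and at G1356 to U1362. It was C1237 to C1247 with manganese (11 positions) and Ψ1244 to A1250 with magnesium (7 positions). Multiplying, position by position, the share of the reads reaching it that also copied it gives the share of reads entering a window at its 3′ edge that would leave it at its 5′ edge. From A1250 to C1237 this was 63.6% in the mock library and 9.62% in the CMC library with HIV RT, 49.6% and 8.47% with manganese, and 29.9% and 3.77% with magnesium. From A1369 to G1356 it was 71.2% and 14.5%, 60.2% and 8.37%, and 59.99% and 7.46%. From Ψ1445 to U1441 it was 86.7% and 25.3%, 82.2% and 28.6%, and 85.2% and 25.95%. From U1408 to U1400, with no listed base, it was 81.8% and 52.3%, 74.8% and 43.0%, and 73.6% and 41.3%. These 4 stretches lie inside the 4 windows shown above and are 14, 14, 5 and 9 positions long, in the order given. Passage over 5 or 9 positions is therefore not on a par with that over 14. The stretch with U1248 let the fewest mock reads through in every condition, also beside the other of 14 positions. Its lowest passage was with magnesium, where C1247 and U1248 had the 2 highest stop shares of the domain without CMC.

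**Figure D3:**
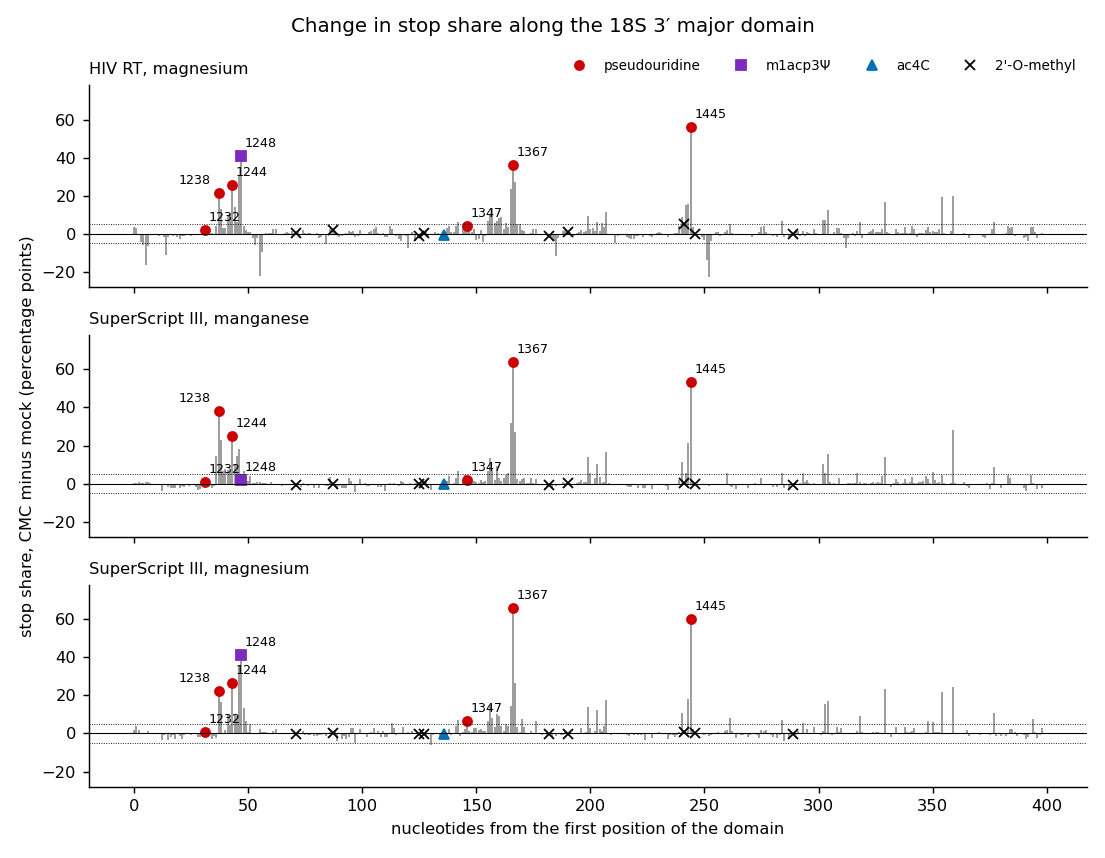
Change in stop share (CMC minus mock, points) at each of the 399 positions of the domain for the 3 conditions, with listed positions marked by kind and dotted lines at the threshold of 5 points. Ψ1445 and Ψ1367 stand out in each condition (53.1 and 63.9 points with manganese), while U1248 changed by 40.6 points (HIV RT), 1.84 points (manganese) and 41.4 points (magnesium).

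The U that are not on the list were then compared by their neighbours. Over the 77, the stop change had a median of 2.79 points (HIV RT), 1.26 points (manganese) and 3.14 points (magnesium), and 24, 20 and 27 of them rose (31.2%, 26.0% and 35.1%). Without the U that lie within 3 bases of a listed position, the medians were 2.74, 0.807 and 3.21 points. The 278 U of the rest of 18S that are not known Ψ had medians of 2.74, 1.25 and 3.27 points, and 32.0%, 23.4% and 37.8% of them rose. Ribose-methylated U were not taken out of that set. Within the domain, the 14 U followed by an A on their 3′ side had medians of 10.6, 12.1 and 15.2 points, and 12, 11 and 13 of the 14 rose. The 21 followed by another U had 3.89, 2.42 and 4.14 points, with 8, 6 and 9 called. The 26 followed by G had 1.63, 0.621 and 2.96 points, and the 16 followed by C had 0.911, -0.132 and 1.16 points. So the order of the neighbours was A, U, G and C in every condition. Sorted by the 5′ base instead, the medians spanned 2.44, 2.84 and 2.43 points, against 9.65, 12.2 and 14.0 points for the 3′ base.

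The largest stop rise of an unlisted U more than 3 bases from a listed one was at U1560, shown with U1530 because both have an A just 3′ of them.
U1530: cgcgcgcUacacuga
U1560: ccuacccUacgccgg
U1560 rose from 1.99% to 22.0% with HIV RT, from 5.79% to 33.9% with manganese and from 5.16% to 29.8% with magnesium. U1530 rose from 5.43% to 22.3%, from 2.70% to 16.8% and from 4.87% to 28.1%. The mutation share at U1560 stayed below 1% in all 6 libraries.

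For mutation the neighbours ordered the unlisted U differently. Those followed by A had the lowest medians, 0.441, 0.327 and 0.111 points in the order HIV RT, manganese, magnesium. Those followed by G had 1.27, 0.943 and 0.143 points, and those followed by U had 1.08, 0.962 and 0.133 points. Over the 77 U, the rank correlation (Spearman's rho) of the stop changes between conditions was 0.725 for HIV RT and manganese, 0.794 for HIV RT and magnesium and 0.761 for manganese and magnesium. For the mutation changes it was 0.544, 0.303 and 0.696. These points share 1 RNA and each condition's depth, so the values are a description.

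**Figure D4:**
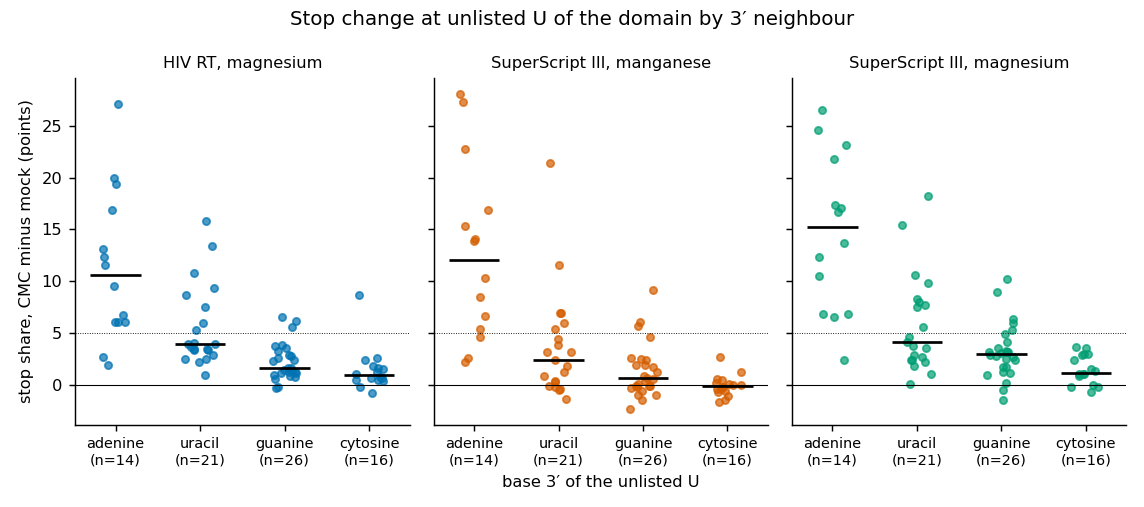
Change in stop share (CMC minus mock, points) at the 77 unlisted U of the domain, by the base on their 3′ side, for each condition, with a bar at each group's median. The 14 U followed by A have medians of 10.6, 12.1 and 15.2 points, above those of the U followed by U, G or C.

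Stops also fell with CMC, and at the threshold of 5 points most of these falls were with HIV RT. At 2 points the numbers of falling positions were 37 (HIV RT), 35 (manganese) and 25 (magnesium). At 5 points, with HIV RT 13 of the 399 positions fell, none of them U (6 G, 5 C and 2 A), where 3.66% of all positions tested fell. With manganese 0 fell, against 1.98% over all positions, and with magnesium 2 fell, against 1.84%. The 3 positions with the highest HIV RT mock stop shares of the domain were among the 13, and their contexts are shown with the position in capitals.
G1206: aauugacGgaagggc
G1256: caacacgGgaaaccu
C1453: agagggaCaaguggc
At C1453 the stop share fell from 26.8% to 4.11%, at G1256 from 25.9% to 3.69% and at G1206 from 25.8% to 9.25%. Each of the 3 lies in a stretch of purines or has one just 3′ of it.

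Over the 13 positions the HIV RT mock stop share ranged from 7.35% to 26.8% with a median of 16.2%, and the CMC median was 4.50%. These positions were chosen by that fall, so it is a description. The other conditions were not used to choose them. Their mock medians at the same 13 positions were 3.20% with manganese and 2.03% with magnesium, and only 1 of the 13 had a mock stop share of 5% or more in each, so the other 12 could not fall by the threshold there. With magnesium the 2 falls were at C1331, from 11.1% to 4.76%, and G1298, from 11.1% to 5.99%.

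**Figure D5:**
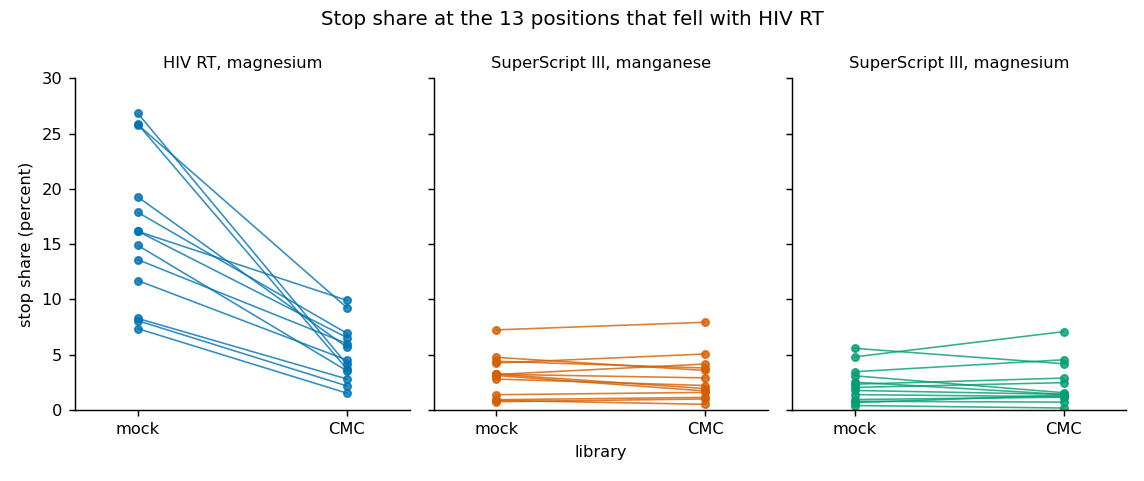
Stop share (percent) in the mock and CMC library of each condition at the 13 positions whose stop share fell with HIV RT, 1 line per position. The HIV RT lines start between 7.35% and 26.8%, while the same positions start at or below 7.24% with SuperScript III in either condition.

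Without CMC, positions other than U1248 that misread most differed by condition. With HIV RT they were C1597 (3.39%), A1378 (2.78%) and A1370 (2.48%), and with manganese A1258 (3.99%), A1313 (3.88%) and A1276 (3.79%). With magnesium they were C1467 (1.60%), A1276 (1.32%) and C1437 (0.862%), so that A1276 was shared by both SuperScript III conditions. The highest mock stop shares with manganese were at G1375 (13.5%), C1331 (12.1%) and G1298 (10.7%), of which C1331 and G1298 were also among the highest with magnesium. None of the 9 ribose-methylated positions was called for mutation in any condition, where 1.05%, 1.29% and 0.159% of all positions tested rose (HIV RT, manganese, magnesium). For stops only U1442, within the run that ends at Ψ1445, rose, from 3.09% to 8.26% with HIV RT. Over all positions tested 10.1%, 8.38% and 9.22% rose in stops, so with 9 sites these counts are near the shares over all positions.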

How the data were processed

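Each library came as 1 deposited table for 18S and another for 28S. Per the file headers, a row holds a position, its base, counts of crossing reads in all and by base, the stops, and a mismatch rate and a stop frequency, which the authors deposited as fractions. The submitters' processing notes name Trimmomatic 0.32 and Bowtie 1.0. Settings, reference and counting program: not given in the sources used here. The HIV RT tables carry a different name ending from the others, and whether their processing differed is not stated. Human rDNA has many copies, whose reads are not separated.

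Where a stop is booked was checked: from position 2 to 3 the crossing count rose by the stop count at position 1 in 12 of 12 tables. Shares were computed from the counts with Python 3.11.15 and scipy 1.17.1. The calls were tried on simulated counts for mutation with HIV RT and stops with magnesium only. Those counts held sampling error alone, so they cannot show how far replicate libraries would differ. Fisher tests ran over 6935 (HIV RT), 6924 (manganese) and 6912 (magnesium) positions that had 100 or more crossing reads in both libraries. Wilson and Newcombe intervals are at 95%.

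The domain, lists and settings were chosen with earlier results of these data known. Positions named are the 8 main ones and their neighbours, the unlisted positions with the largest called changes (3 rises, 2 falls) and the 3 highest mock shares per condition and measure, and the 6 largest changes called in every condition. U1400, U1404, U1408, U1530 and the 4 windows were chosen after their values were seen. Other thresholds, a coverage minimum of 1000, stop shares over all reads reaching a position (added after the data were seen), centring on the same base, stops read 1 base aside, and means or pooled reads were tried.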

Additional observations from a re-analysis of the deposited data

Results flagged for a closer look

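Among the positions named here, 3 were called for stops in at least 1 condition and changed in the opposite direction, beyond counting error, in another. Of all 399 positions of the domain, 10 met the same rule, and 126 had opposite directions beyond counting error whether called or not. Each direction was seen in single libraries and the difference was not tested. At G1206 it was -16.6 points with HIV RT and 0.809 and 0.433 points with SuperScript III and manganese or magnesium. At G1256 it was -22.2 points with HIV RT, against 0.690 (manganese) and 2.28 (magnesium). At C1237, just 5′ of Ψ1238, it was -2.42 points with magnesium, against 3.95 (HIV RT) and 14.6 (manganese).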

How the results depend on the processing

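Counts of called positions moved with the threshold. They are given in the order HIV RT, manganese, magnesium. At 2 points in place of 5, mutation rose at 16, 24 and 1 positions and stops rose at 97, 70 and 80 and fell at 37, 35 and 25, and mutation fell at 2 with HIV RT. At 10 points, mutation rose at 2 and 2 positions with HIV RT and manganese and fell at 0 with manganese and 0 with magnesium, stops rose at 20, 21 and 23, and stops fell at 6 with HIV RT and 0 with magnesium. With a 2-fold ratio in place of points, mutation rose at 83, 182 and 173 and fell at 25, 12 and 5, and stops rose at 102, 67 and 83 and fell at 52, 51 and 59. In place of medians over the 6 Ψ, means gave 8.60, 5.68 and 0.622 points (mutation) and 24.4, 30.5 and 30.3 points (stops). Pooled reads gave 7.48 and 5.08 points (mutation, HIV RT and manganese) and 37.7, 44.7 and 52.8 points (stops). Over all reads reaching a position, chosen after the data were seen, the stop medians of the 6 Ψ were 22.0 and 28.3 points (HIV RT, manganese), and the ranges of the unlisted U by 3′ base were 8.63, 9.68 and 10.1 points. Sorting the unlisted U by 5′ base gave stop ranges of 2.44, 2.84 and 2.43 points.

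A coverage minimum of 1000, Bonferroni adjustment centring on the median of the same base and, for stops, all reads reaching a position left every count of called positions within 1.5 times. At single sites, that centring turned the mutation change at Ψ1238 to -0.142 (HIV RT) and -0.0137 (manganese) and the stop change at Ψ1232 to -1.22, -0.351 and -3.38. It also took 2 called changes under 5 points. The HIV RT mutation change at Ψ1244 went from 5.39 to 4.43 points, and the magnesium stop change at Ψ1347 from 6.46 to 2.46 points. Read 1 base 3′, the stop change at Ψ1232 was -0.0243 with HIV RT and -0.237 with manganese, and at C1337 it was 3.20 and 1.24. Read 1 base 5′, it was -0.727 at Ψ1232 and -2.42 at Ψ1238 with magnesium. The cause was not tested. No paired analysis was possible because each group holds 1 library, so a difference between libraries other than the treatment cannot be told apart from it. Depth did not limit the calls, since intervals were far narrower than 5 points.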
